A study of Mus musculus with 6 samples.

Results

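A set of 10 immediate early genes, given by name, was followed among the 54532 named genes of the count table, and all 10 were found. They are Fos, Fosb, Jun and Junb (subunits of the dimeric factor AP-1), Egr1 and Nr4a1 (other transcription factors), Ier2 and Ier3 (early response genes of other kinds), and Dusp1 and Zfp36 (feedback inhibitors). The tissue was whole mouse kidney after 12 h of systemic hypoxia at 8% oxygen, in mice labelled Lpar3-/- (Lpar3 encodes a receptor for lysophosphatidic acid) and in WT mice, with 3 libraries of polyadenylated RNA in each group. All 6 libraries thus come from hypoxic mice, and no comparison with normal air is made. The labels give no age, sex or strain, do not say how the Lpar3 allele was altered, and do not say whether each library came from its own animal, so the p-values rest on a spread between samples that may be technical.

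Immediate early genes are switched on within minutes of a stimulus, without new protein synthesis, by factors already present in the cell. Serum response factor with its ternary complex partners, and CREB, are the best known of these, and both lie downstream of MAP kinases and of G protein-coupled receptors, the class to which lysophosphatidic acid receptors belong. The transcripts are short-lived, many carry AU-rich elements, and the products of genes such as Dusp1 and Zfp36 close the response. In kidney they are known to rise with ischaemia, osmotic stress and growth factors.

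The promoter windows of 4 of these genes are shown. They differ in the number or kind of the elements marked below, although Fos, Nr4a1 and Dusp1 share the CRE core. Each of the 4 genes was highest in a different library, as described further on. A link between elements and libraries was not tested. RefSeq windows on GRCm38.p6, from 250 bases before to 50 bases after the annotated start, were matched for 8 of the 10 genes. Egr1 and Ier2 were not matched. The Nr4a1 and Zfp36 windows lie inside the spans that the count table gives those genes, at the starts RefSeq annotates. Capitals mark the CRE core TGACG on either strand, the full CRE TGACGTCA, and the CArG box, the binding element of serum response factor.
Fos (chr12:85473640-85473939, plus strand): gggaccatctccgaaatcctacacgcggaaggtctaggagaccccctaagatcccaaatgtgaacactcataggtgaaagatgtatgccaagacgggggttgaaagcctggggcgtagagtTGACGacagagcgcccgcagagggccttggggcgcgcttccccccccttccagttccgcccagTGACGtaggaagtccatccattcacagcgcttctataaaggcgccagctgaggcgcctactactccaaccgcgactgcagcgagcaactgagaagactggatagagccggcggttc
Nr4a1 (chr15:101266596-101266895, plus strand): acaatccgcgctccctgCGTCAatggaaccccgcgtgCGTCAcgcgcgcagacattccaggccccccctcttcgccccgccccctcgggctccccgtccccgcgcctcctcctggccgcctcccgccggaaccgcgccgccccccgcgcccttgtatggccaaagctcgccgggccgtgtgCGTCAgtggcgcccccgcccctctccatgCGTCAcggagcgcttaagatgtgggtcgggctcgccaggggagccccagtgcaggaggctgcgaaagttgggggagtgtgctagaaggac
Dusp1 (chr17:26508423-26508722, minus strand): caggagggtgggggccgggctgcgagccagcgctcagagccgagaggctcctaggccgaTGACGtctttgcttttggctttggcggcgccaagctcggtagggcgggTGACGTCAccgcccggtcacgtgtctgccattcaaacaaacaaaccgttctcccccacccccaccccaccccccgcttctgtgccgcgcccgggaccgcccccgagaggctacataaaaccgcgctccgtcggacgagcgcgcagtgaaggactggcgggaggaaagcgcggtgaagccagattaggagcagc
Zfp36 (chr7:28379179-28379478, minus strand): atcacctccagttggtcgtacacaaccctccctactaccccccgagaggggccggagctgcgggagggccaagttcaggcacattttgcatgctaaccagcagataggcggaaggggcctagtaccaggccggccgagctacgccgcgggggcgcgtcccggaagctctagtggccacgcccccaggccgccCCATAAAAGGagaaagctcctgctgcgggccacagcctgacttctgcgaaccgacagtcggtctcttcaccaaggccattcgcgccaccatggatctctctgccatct

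The CRE core was present in 5 of the 8 windows (Fos, Fosb, Junb, Nr4a1 and Dusp1), against 20.8% of all 32851 RefSeq windows of the same length. Nr4a1 held 4 copies, which began 233, 213, 69 and 40 bases before the start, and Fos held 2, at 129 and 66 bases. The full CRE, which contains the core on both strands, was found in Dusp1 alone, 143 bases before the start, and in 1.79% of all windows. Within these windows the CArG box was found in Zfp36 alone, 58 bases before the start, and in 1.63% of all windows. Elements more than 250 bases before a start, and any in Egr1 and Ier2, were not searched. The AP-1 motif TGANTCA was in 0 of the 8 windows and in 7.81% of all. The EGR motif GCGNGGGCG was in 3 (Fosb, Nr4a1 and Zfp36) and in 5.55% of all. The TATA motif TATAAA was in 2 (Fos and Junb) and in 13.6% of all. It began 33 bases before the annotated start in Fos and 0 bases before it in Junb. Both strands were searched, and a match describes letters in a window, not a bound site.

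Libraries held 16011804 to 17991881 counts. The 10 genes together took 0.0243% to 0.0313% of the named counts in the libraries labelled Lpar3-/- and 0.0278% to 0.0325% in WT libraries. Lpar3 itself had 672, 592 and 580 counts in the libraries labelled Lpar3-/-, against 645, 634 and 577 in WT libraries. Since counts per gene cannot show whether part of the gene was missing, directions rest on what the libraries were labelled. Proximal tubule markers were abundant, as in kidney. Lrp2 had 1708 ± 72.4 CPM (counts scaled to library size) in the libraries labelled Lpar3-/- and 1620 ± 36.9 CPM in WT libraries (SD, n = 3 each), and Slc34a1 had 2662 ± 137 CPM in the libraries labelled Lpar3-/- and 2612 ± 96.6 CPM in WT libraries. Of the adrenal genes listed, Cyp11b1, Cyp11b2, Cyp21a1 and Th had no counts in any library. In a chi-square comparison of counts between pairs of libraries, those labelled Lpar3-/- differed less among themselves (4.44 to 7.66 per degree of freedom) than any pair of WT libraries did, the widest at 13.9. WT replicate 1 differed from them by 8.34 to 9.57.

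No immediate early gene on the list passed the test between genotypes. Of the 9 tested, 0 were called (edgeR quasi-likelihood, p adjusted by Benjamini-Hochberg over 15225 genes, under 0.05), where 0.374% of all genes tested were called. DESeq2 and limma-voom also called 0. At an unadjusted p under 0.05 there were 2, Ier2 and Nr4a1, where 9.18% of all genes passed that level. The same 2 genes were those whose groups did not overlap, both with the libraries labelled Lpar3-/- below WT. Groups did not overlap for 13.7% of all genes tested, and lay in that direction for 7.12%. Of the 9, 7 had a negative log2 fold change, with a median of -0.26, beside a median of -0.0036 over all genes tested. Each of the 16 alternative fits called 0 of them. The number called over all genes was 57, and leaving out a library moved it to 12 (labelled Lpar3-/- replicate 1, and likewise replicate 3), 26 (labelled Lpar3-/- replicate 2) or 149 (WT replicate 1). Whether a lower level reflects fewer cells that express a gene or less RNA per cell cannot be told apart in whole tissue.

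**Figure D1:**
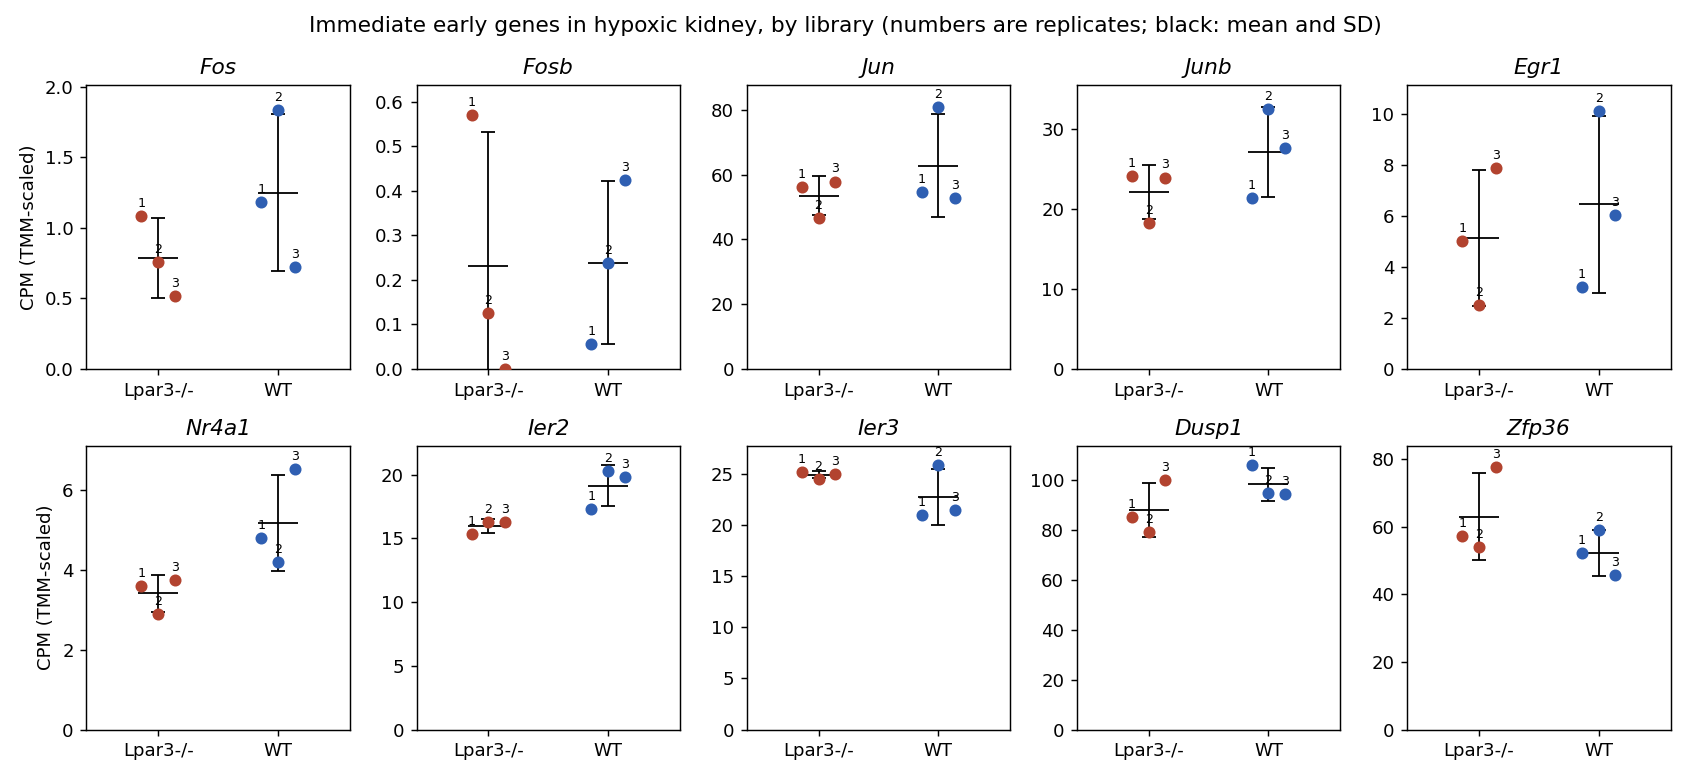
Expression of the 10 immediate early genes in CPM (TMM-scaled counts, each vertical axis from 0), with 1 point per library, numbered by replicate, and the mean and SD of each group in black (the lower SD bar of Fosb in the libraries labelled Lpar3-/- is cut at 0). The groups stand apart for Nr4a1 and Ier2 and overlap for the other 8, and WT replicate 2 is the highest library for Fos, Jun, Junb, Egr1, Ier2 and Ier3.

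Among the AP-1 subunits, Fos and Fosb were close to the detection limit while Jun and Junb were well expressed. Fos, whose protein pairs with Jun proteins, had 19, 12 and 9 counts in the libraries labelled Lpar3-/-, against 21, 31 and 12 in WT libraries (GRCm38 chromosome 12, 85473890 to 85477273, plus strand). These are 1.08, 0.756 and 0.520 CPM in the libraries labelled Lpar3-/-, against 1.19, 1.83 and 0.726 CPM in WT libraries. The groups overlapped, with WT replicate 2 the highest and labelled Lpar3-/- replicate 3 the lowest. This gave a log2 fold change of -0.66, its standard error (SE) being 0.44, with 95% limits of -1.62 and 0.30 (edgeR adjusted p = 0.724), the widest interval of the 9. It was -0.28 without WT replicate 2 and -0.43 without labelled Lpar3-/- replicate 3. Fosb had 10, 2 and 0 counts in the libraries labelled Lpar3-/-, against 1, 4 and 7 in WT libraries, and did not pass the expression filter. With no filter, its log2 fold change was -0.012 (edgeR adjusted p = 1).

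Jun, the partner of most AP-1 dimers, had 56.1, 46.5 and 57.9 CPM in the libraries labelled Lpar3-/-, against 54.5, 81.1 and 52.7 CPM in WT libraries. WT replicate 2 stood above the other 5 libraries, which lay close together. The log2 fold change of -0.23 (SE 0.15, edgeR adjusted p = 0.715) became -0.0011 without WT replicate 2 (edgeR adjusted p = 0.999, in a range of 0.253 to 0.999 over the alternatives), while without any other single library it lay between -0.34 and -0.14. Junb, which can oppose Jun in AP-1 dimers, had 24.1, 18.3 and 23.9 CPM in the libraries labelled Lpar3-/-, against 21.3, 32.5 and 27.6 CPM in WT libraries. Here labelled Lpar3-/- replicate 2 was the lowest library and WT replicate 2 the highest, and the groups overlapped through WT replicate 1. Its log2 fold change was -0.29 (SE 0.15, 95% interval -0.62 to 0.038, edgeR adjusted p = 0.609), -0.14 without WT replicate 2 and -0.17 without labelled Lpar3-/- replicate 2, and the edgeR adjusted p ranged from 0.180 to 0.929 over the alternatives. An exon of Junb overlaps one of Prdx2 on the opposite strand, a gene with 2570 to 3057 counts per library. The strand setting of the counting is not given in the sources used here, so reads of the pair in the shared stretch cannot be told apart. Jun overlaps Junos in the same way, which had 4 to 20 counts.

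Egr1, a zinc finger factor that relays growth factor and stress signals, varied more between libraries of a group than any other of the genes tested from this list. It had 88, 40 and 136 counts in the libraries labelled Lpar3-/-, against 57, 171 and 100 in WT libraries. In CPM these were 5.01, 2.52 and 7.86 in the libraries labelled Lpar3-/-, against 3.22, 10.1 and 6.05 in WT libraries. The groups overlapped over most of their range, and the highest library (WT replicate 2) exceeded the lowest (labelled Lpar3-/- replicate 2) by 4.02-fold. Its log2 fold change was -0.32 (SE 0.41, 95% interval -1.21 to 0.57, edgeR adjusted p = 0.879). Its sign turned without WT replicate 2, to 0.16 (edgeR adjusted p = 0.949, in a range of 0.549 to 1 over the alternatives), and it was -0.0029 without labelled Lpar3-/- replicate 2 (edgeR adjusted p = 0.999). It was -0.76 without labelled Lpar3-/- replicate 3 and -0.65 without WT replicate 1.

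Nr4a1, an orphan nuclear receptor whose promoter window held the 4 CRE cores shown above, had the lowest p of the 9. It had 63, 46 and 65 counts in the libraries labelled Lpar3-/-, against 85, 71 and 108 in WT libraries. In CPM it had 3.59, 2.90 and 3.76 in the libraries labelled Lpar3-/-, against 4.80, 4.20 and 6.53 in WT libraries. All 3 libraries labelled Lpar3-/- lay below all 3 WT libraries, the highest of them at 3.76 CPM and the lowest WT library at 4.20 CPM. On the log2 scale the fold change was -0.60 (SE 0.23, 95% limits -1.09 and -0.10). Its unadjusted p was 0.0217 and the adjusted p 0.413 over all genes (edgeR). It was negative under all 16 alternatives, from -0.72 to -0.32, and the adjusted p stayed between 0.249 and 0.793. Without WT replicate 3, the highest library, the log2 fold change was -0.39 and the unadjusted p 0.116 in the edgeR fit. The related receptors were scarcer: Nr4a2 had 4, 12 and 11 counts in the libraries labelled Lpar3-/-, against 4, 11 and 12 in WT libraries. Nr4a3, named here after its values were seen, had 7, 3 and 4 counts in the libraries labelled Lpar3-/-, against 11, 7 and 11 in WT libraries, and did not pass the filter.

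Ier2, an early response gene whose protein is found in the nucleus, had the smallest pooled within-group spread of the 9. It had 15.3, 16.3 and 16.2 CPM in the libraries labelled Lpar3-/-, against 17.3, 20.3 and 19.8 CPM in WT libraries. The groups did not overlap, although WT replicate 1 came within 1 CPM of the libraries labelled Lpar3-/-. This was a log2 fold change of -0.26 (SE 0.11, 95% limits -0.49 and -0.028). The unadjusted p was 0.0309 and the adjusted p 0.472 over all genes (edgeR). It was negative under all 16 alternatives, from -0.33 to -0.21, with adjusted p from 0.251 to 0.811. Ier3, an early gene linked to cell survival, had 25.2, 24.5 and 24.9 CPM in the libraries labelled Lpar3-/-, against 20.9, 25.9 and 21.4 CPM in WT libraries. The libraries labelled Lpar3-/- were nearly equal, at an SD of 0.340 CPM against 2.71 CPM in WT, and WT replicate 2 was above them while WT replicates 1 and 3 were below. It had a log2 fold change of 0.13 (SE 0.10, edgeR adjusted p = 0.782), which was 0.074 without WT replicate 1 and 0.23 without WT replicate 2.

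The feedback inhibitors had log2 fold changes of opposite sign. Dusp1, the phosphatase that switches off MAP kinases and the gene with the full CRE, had 85.0, 79.0 and 100.04 CPM in the libraries labelled Lpar3-/-, against 106, 94.6 and 94.2 CPM in WT libraries. The groups overlapped only through labelled Lpar3-/- replicate 3. This was a log2 fold change of -0.16 (SE 0.091, 95% limits -0.36 and 0.040, edgeR adjusted p = 0.668). It was -0.086 without labelled Lpar3-/- replicate 2, -0.26 without labelled Lpar3-/- replicate 3 and -0.0998 without WT replicate 1. Zfp36, which encodes tristetraprolin, the protein that binds AU-rich elements and speeds the decay of early and cytokine mRNAs, had 57.2, 54.0 and 77.6 CPM in the libraries labelled Lpar3-/-, against 52.3, 59.2 and 45.6 CPM in WT libraries. Labelled Lpar3-/- replicate 3 was the highest library and WT replicate 3 the lowest, and the groups overlapped. Its log2 fold change was 0.27 (SE 0.13, 95% interval -0.023 to 0.55, edgeR adjusted p = 0.587), and 0.090 without labelled Lpar3-/- replicate 3 (edgeR adjusted p = 0.969, in a range of 0.0991 to 0.969 over the alternatives). Zfp36 shares an exon stretch with Gm44710 on the other strand, which had 4 to 23 counts.

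Per length, in the authors' FPKM over the 6 libraries, the genes fell into steps. Dusp1 was the most abundant, at 32.4 ± 3.93 FPKM in the libraries labelled Lpar3-/- and 36.1 ± 2.42 FPKM in WT libraries (SD, n = 3 each), and its lowest library lay above the highest of the next gene. Ier3, Jun, Zfp36, Ier2 and Junb followed, and the libraries of each overlapped those of its neighbour in this order. At the top of that step Ier3 had 21.8 ± 0.325 FPKM in the libraries labelled Lpar3-/- and 19.9 ± 2.44 FPKM in WT libraries, and at its foot Junb had 9.55 ± 1.44 FPKM in the libraries labelled Lpar3-/- and 11.7 ± 2.44 FPKM in WT libraries. Egr1 and Nr4a1 formed a lower step and could not be ranked against each other. Egr1 had 1.14 ± 0.590 FPKM in the libraries labelled Lpar3-/- and 1.43 ± 0.771 FPKM in WT libraries, and Nr4a1 had 0.967 ± 0.128 FPKM in the libraries labelled Lpar3-/- and 1.46 ± 0.337 FPKM in WT libraries. Fos came next, its highest library (0.775 FPKM) below the lowest of Nr4a1 (0.820 FPKM) but above the lowest of Egr1 (0.558 FPKM). Fos had 0.332 ± 0.120 FPKM in the libraries labelled Lpar3-/- and 0.526 ± 0.236 FPKM in WT libraries, and Fosb lay below Fos with no overlap.

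**Figure D2:**
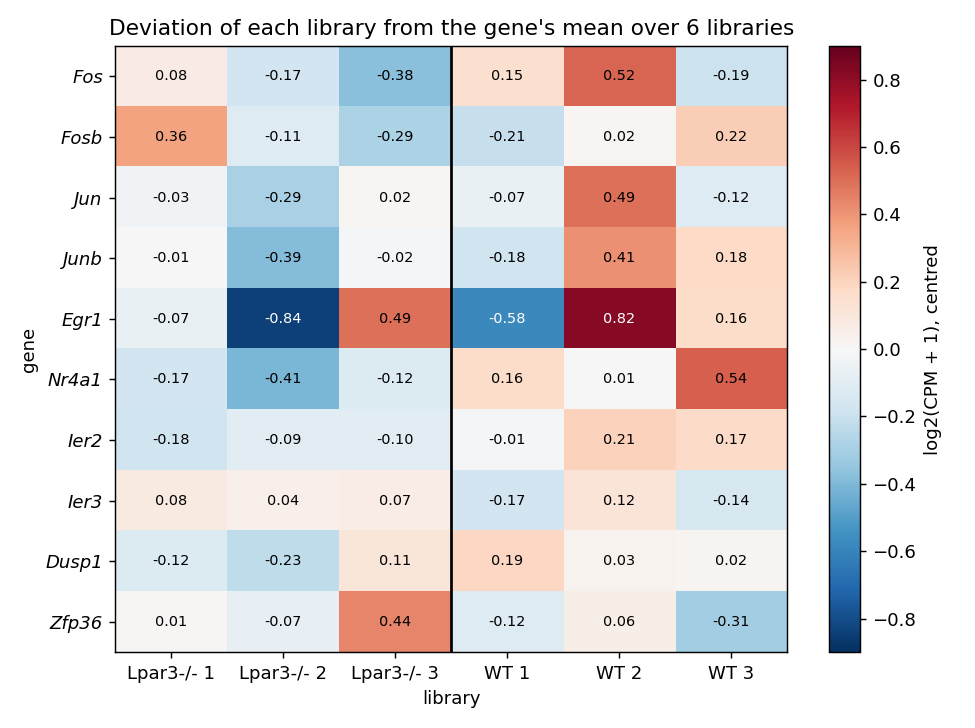
Deviation of each library from the gene's mean over the 6 libraries, in log2(CPM + 1), for the 10 genes, with the libraries labelled Lpar3-/- on the left of the line and WT on the right. The column of WT replicate 2 is positive in every row and that of labelled Lpar3-/- replicate 2 negative in every row but Ier3, while Nr4a1, Dusp1, Zfp36 and Fosb have their highest value in other libraries.

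WT replicate 2 was most often the highest library and labelled Lpar3-/- replicate 2 most often the lowest, but not always for the same genes. Jun, Junb and Egr1 had both extremes in this pair. Of the 9 tested, 6 were highest in WT replicate 2, where 21.9% of all genes tested were. The lowest value of 5 was in labelled Lpar3-/- replicate 2, where 14.02% of all genes had theirs. Averaged over the 9 genes, the deviation from the mean of the 6 libraries on the log2(CPM + 1) scale was -0.045, -0.27 and 0.057 in the libraries labelled Lpar3-/-, against -0.070, 0.30 and 0.035 in WT libraries. WT replicate 2 was the highest and labelled Lpar3-/- replicate 2 the lowest, and the other 4 libraries lay within a narrow band that held both genotypes. The genes did not follow a single order of libraries: Nr4a1 peaked in WT replicate 3, Dusp1 in WT replicate 1 and Zfp36 in labelled Lpar3-/- replicate 3.

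WT replicate 2 also stood out in markers of injured tubule, macrophages and fibroblasts. It was the highest library for 9 of the 10 injury markers tested, whose summed level was 704 to 749 CPM in the libraries labelled Lpar3-/- and 670 to 1233 CPM in WT libraries. All 10 had a negative log2 fold change, with a median of -0.70. Of these, 8 were at an unadjusted edgeR p under 0.05, where 9.18% of all genes tested passed that level. For 5 the groups did not overlap, against 13.7% of all genes tested. WT replicate 2 was likewise the highest library for 8 of the 9 macrophage markers tested, with sums of 102 to 121 CPM in the libraries labelled Lpar3-/- and 122 to 181 CPM in WT libraries. For fibroblast markers it was 6 of 8, with sums of 209 to 226 CPM in the libraries labelled Lpar3-/- and 188 to 340 CPM in WT libraries. The top value of each of these sums was that of WT replicate 2, and no marker of the 3 lists was at 0 in all libraries. The 5 red cell genes were highest there too, with sums of 319 to 563 CPM in the libraries labelled Lpar3-/- and 342 to 625 CPM in WT libraries. WT replicate 2 also had the highest sums of proximal tubule, podocyte, smooth muscle, neutrophil and lymphocyte markers. Of the 8 proximal tubule markers, however, 2 were highest there. Its sums for the loop of Henle with the distal tubule and for the collecting duct were the lowest. Neutrophil markers were scarce, at 2.22 to 2.43 CPM in the libraries labelled Lpar3-/- and 2.54 to 5.74 CPM in WT libraries. Of the 8 listed, Mpo and Elane were at 0 and 3 were tested. The sums that did not overlap between genotypes, beside those of macrophages and neutrophils, included smooth muscle (111 to 126 CPM in the libraries labelled Lpar3-/- and 134 to 172 CPM in WT libraries) and the loop of Henle with the distal tubule (6235 to 6534 CPM in the libraries labelled Lpar3-/- and 5048 to 5887 CPM in WT libraries). The collecting duct sum did not overlap either (810 to 905 CPM in the libraries labelled Lpar3-/- and 778 to 799 CPM in WT libraries). Taken singly, 3 of 9 macrophage, 1 of 3 neutrophil and 1 of 6 smooth muscle markers tested did not overlap. For the loop and distal tubule it was 3 of 6 and for the collecting duct 0 of 6, against 13.7% of all genes tested. Adipocyte markers summed to 124 to 197 CPM in the libraries labelled Lpar3-/- and 183 to 339 CPM in WT libraries. Of the 6 tested, 5 were at an unadjusted edgeR p under 0.05, where 9.18% of all genes tested passed that level. EdgeR called 0 markers of any list named here, while DESeq2 called 2 of the adipocyte and 2 of the loop and distal tubule markers, and limma-voom 1 of the loop and distal tubule markers. DESeq2 also called 2 proximal tubule markers. The part of these cells in the levels of the early genes was not tested.

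**Figure D3:**
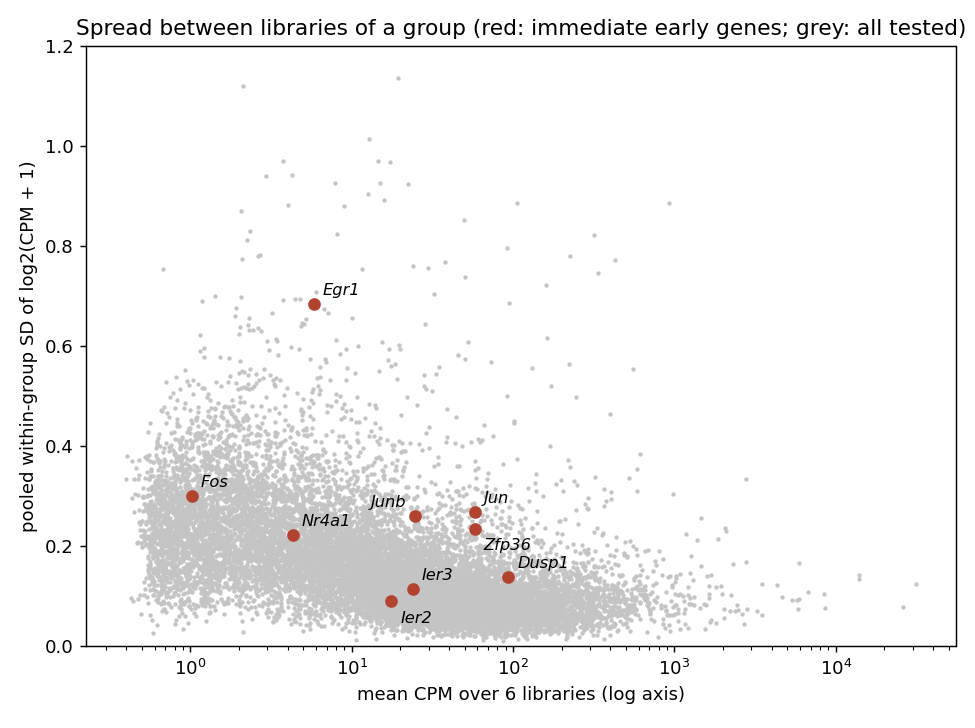
Pooled within-group standard deviation of log2(CPM + 1) against mean CPM over the 6 libraries (log axis) for all genes tested (grey, 8 of them above the top of the axis) and the 9 immediate early genes tested (red). Egr1, at 0.684, lies above nearly all genes of its level, Jun, Junb and Zfp36 lie at the upper edge of the cloud, and Ier2 and Ier3 lie inside it.

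The spread between libraries of a group was wider for most of these genes than for the typical gene. The pooled within-group SD of log2(CPM + 1) had a median of 0.235 over the 9 tested and of 0.134 over all genes tested, and 7 of the 9 were above the median of all genes. Within the libraries labelled Lpar3-/- the median SD was 0.173 over the 9 and 0.106 over all genes, and within WT libraries it was 0.275 and 0.135. Without WT replicate 2 the pooled medians were 0.199 and 0.122. Since low counts spread more, each gene was also set beside the genes within 2-fold of its mean CPM. There Egr1 had 3.67 times the median SD and exceeded 99.5% of 2968 genes, Jun 2.92 times and 97.6% of 4328 genes, and Zfp36 2.56 times and 96.2% of 4343 genes. Junb had 2.29 times the median SD of 4935 genes, and Dusp1 1.63 times that of 3344 genes. Fos (1.24 times), Nr4a1 (1.09 times), Ier3 (0.997 times) and Ier2 (0.716 times) were near or below the median of their level.

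In the wider early response, 1 gene passed the test. Of 69 other early response genes in 4 lists (AP-1 relatives, other transcription factors, feedback inhibitors and effectors), 62 were tested, of which 0 were higher and 1 was lower in the libraries labelled Lpar3-/- (edgeR adjusted p under 0.05), where 0.250% of all genes tested were called lower. At an unadjusted p under 0.05 there were 13, of which 11 were lower, where 5.21% of all genes were lower at that level. The median log2 fold change of the 62 was -0.13, and 42 were negative. Groups did not overlap for 11 of the 62, against 13.7% of all genes tested, and in 10 of these the libraries labelled Lpar3-/- lay below WT, against 7.12% of all genes.

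The gene that fell was Bhlhe40, a transcriptional repressor that is known to be induced by hypoxia as well as by serum. It had 46.5, 40.8 and 39.4 CPM in the libraries labelled Lpar3-/-, against 53.8, 70.7 and 64.7 CPM in WT libraries, with no overlap. Its log2 fold change was -0.58 (SE 0.10, 95% interval -0.80 to -0.35, edgeR adjusted p = 0.0405). The call did not hold in 5 of the 6 fits that left out a library. The edgeR adjusted p was 0.0890, 0.197 and 0.260 without labelled Lpar3-/- replicates 1, 2 and 3, and 0.0609 and 0.123 without WT replicates 2 and 3, within a range of 2.9e-08 to 0.416 over all alternatives. The low end of that range came from the edgeR fit with no filter, which called 520 genes over all genes. Limma-voom and the fit with replicate numbers as a block did not call it either (adjusted p = 0.0505 and 0.0584).

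Other early genes stood lower in the libraries labelled Lpar3-/- without passing the test. Maff, a small Maf protein, had 9.17, 11.9 and 9.02 CPM in the libraries labelled Lpar3-/-, against 14.6, 16.9 and 14.6 CPM in WT libraries (log2 fold change -0.62, SE 0.14, edgeR adjusted p = 0.1), and DESeq2 called it (adjusted p = 0.0386, in a range of 0.00166 to 0.470 over the alternatives). Dusp5, a nuclear phosphatase of the MAP kinase ERK, had 2.79, 3.53 and 3.01 CPM in the libraries labelled Lpar3-/-, against 4.91, 6.80 and 5.44 CPM in WT libraries (log2 fold change -0.88, SE 0.21, edgeR adjusted p = 0.122). The low end of the range of Maff came from the edgeR fit with no filter. In both Maff and Dusp5 the groups did not overlap. Gadd45a, a growth arrest gene, and Plk2, a kinase gene, did not overlap between groups either, at log2 fold changes of -0.37 (SE 0.11) and -0.46 (SE 0.17), with edgeR adjusted p = 0.268 and 0.384. Fosl2, another Fos protein, had a log2 fold change of -0.21 (SE 0.085, edgeR adjusted p = 0.445), and its groups did not overlap.

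The log2 fold changes of Atf3 and Socs3 were smaller without WT replicate 2. Atf3, a stress-induced factor of the same protein class, had 1.37, 0.882 and 0.983 CPM in the libraries labelled Lpar3-/-, against 1.19, 6.69 and 2.72 CPM in WT libraries, and WT replicate 1 lay among the libraries labelled Lpar3-/-. Its log2 fold change of -1.70 (SE 0.53, edgeR adjusted p = 0.291) was -0.84 without WT replicate 2 (edgeR adjusted p = 0.606, in a range of 1.42e-05 to 0.795). Socs3, an inhibitor of cytokine signalling, had 2.22, 2.02 and 2.66 CPM in the libraries labelled Lpar3-/-, against 2.31, 6.09 and 5.02 CPM in WT libraries (log2 fold change -0.95, SE 0.33, edgeR adjusted p = 0.358), and its log2 fold change was -0.66 without WT replicate 2. Without WT replicate 1, both were called, at edgeR adjusted p of 0.0336 and 0.0378 (that of Socs3 in a range of 0.0157 to 0.782 over the alternatives). The low ends of the ranges of Atf3 and Socs3 came from the edgeR fit with no filter.

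The genes with the widest within-group spread in these lists included several that shared the high value of WT replicate 2. Cyr61, a matricellular protein gene, had 10.99, 13.8 and 12.1 CPM in the libraries labelled Lpar3-/-, against 10.9, 24.5 and 15.8 CPM in WT libraries (log2 fold change -0.47, SE 0.23, edgeR adjusted p = 0.584). Klf6, a zinc finger factor, had 44.8, 46.2 and 45.5 CPM in the libraries labelled Lpar3-/-, against 41.0, 70.2 and 52.0 CPM in WT libraries (-0.26, SE 0.15, edgeR adjusted p = 0.665). In both, WT replicate 1 was the lowest library, so the groups overlapped. Irf1, Tnfaip3, Fosl1 and Ctgf were also highest in WT replicate 2, at log2 fold changes of -0.25, -0.39, -0.48 and -0.052. Sik1, Mafg and Ptgs2 peaked in WT replicate 3 and Nab2 in labelled Lpar3-/- replicate 1. Per1, a circadian repressor that is also an early gene, was lowest in WT replicate 2, with 59.3, 49.4 and 59.5 CPM in the libraries labelled Lpar3-/-, against 60.8, 37.6 and 54.9 CPM in WT libraries. None of these genes passed the edgeR test, and the groups overlapped for each.

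There were 2 genes with positive log2 fold changes and an unadjusted p under 0.05. Gadd45g, a stress gene, had 62.5, 66.3 and 74.8 CPM in the libraries labelled Lpar3-/-, against 62.0, 31.8 and 50.1 CPM in WT libraries, and here WT replicate 2 was the lowest library (log2 fold change 0.50, SE 0.18, edgeR adjusted p = 0.371). Its log2 fold change was 0.28 without WT replicate 2 and 0.73 without WT replicate 1, and the call was made in neither fit. Errfi1, an inhibitor of the EGF receptor, had 702, 767 and 800.05 CPM in the libraries labelled Lpar3-/-, against 714, 634 and 617 CPM in WT libraries (log2 fold change 0.21, SE 0.082, edgeR adjusted p = 0.444). Egr2, a relative of Egr1 singled out after its values were seen, had 1, 1 and 1 counts in the libraries labelled Lpar3-/-, against 8, 13 and 9 in WT libraries. It did not pass the expression filter, and the edgeR fit with no filter gave it an adjusted p of 0.0440 over 26645 genes. That fit was more liberal, with 520 genes called over all genes against 57 in the main fit.

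**Figure D4:**
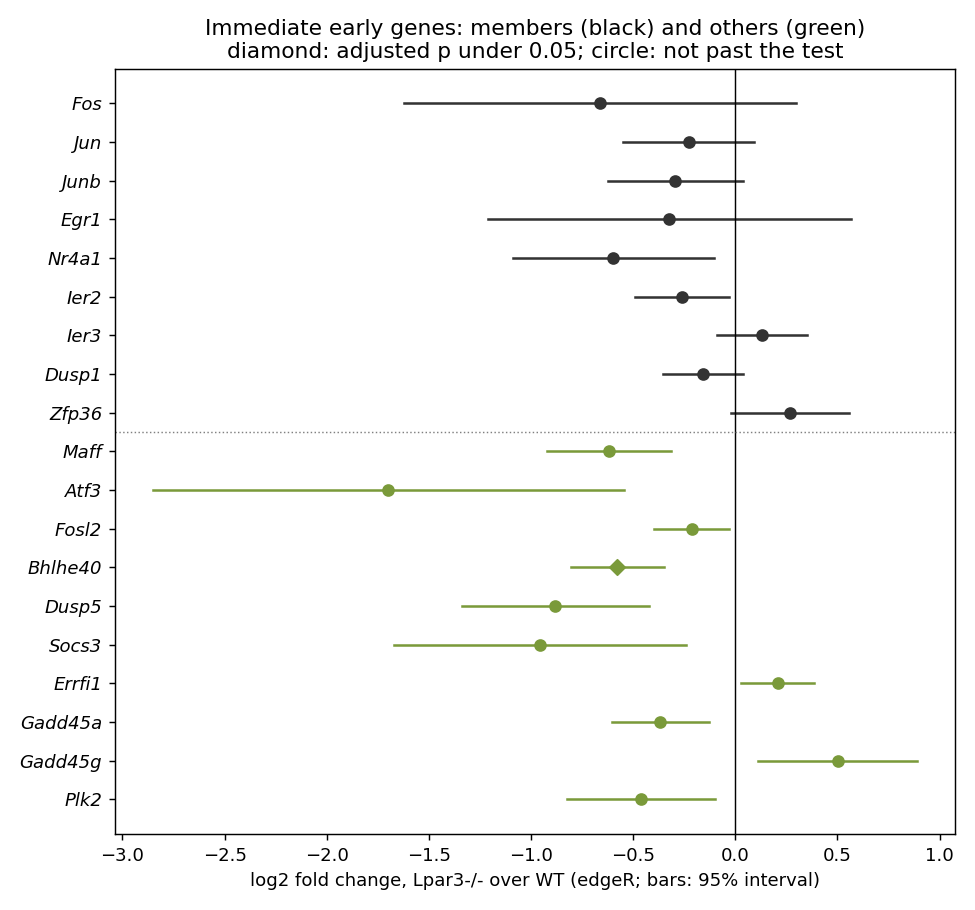
Log2 fold changes, libraries labelled Lpar3-/- over WT, with 95% intervals (edgeR), for the 9 immediate early genes tested (black) and for the 10 other early genes named by called status or lowest p in their list (green). Bhlhe40, the diamond, is the one gene past an adjusted p of 0.05, and the intervals of Nr4a1 and Ier2 are the ones among the black bars that do not cross 0.

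No gene that drives the early response passed the test. The 29 tested encode serum response factor, its partners, CREB, and MAP kinases with their activators. Calls numbered 0 by edgeR, by DESeq2 and by limma-voom. The median log2 fold change of the 29 was 0.0094, in a range of -0.20 to 0.22. A single gene was at an unadjusted edgeR p under 0.05, where 9.18% of all genes tested passed that level. It was Rps6ka3, a kinase downstream of ERK that phosphorylates CREB, with 88.8, 93.5 and 97.0 CPM in the libraries labelled Lpar3-/-, against 78.0, 83.5 and 77.7 CPM in WT libraries (log2 fold change 0.22, SE 0.068, edgeR adjusted p = 0.276). Elk4, a ternary complex factor, and Mapk3, which encodes ERK1, followed with log2 fold changes of 0.17 (SE 0.081, edgeR adjusted p = 0.567) and 0.14 (SE 0.069, edgeR adjusted p = 0.585). Srf itself had 34.1, 30.0 and 29.8 CPM in the libraries labelled Lpar3-/-, against 31.3, 31.8 and 32.7 CPM in WT libraries.

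Few of the AU-rich mRNAs known to be bound by the Zfp36 protein were measurable. Of 14 listed, 4 were tested, and edgeR, DESeq2 and limma-voom called 0 of them, with 0 at an unadjusted p under 0.05. Ptgs2 (log2 fold change -0.77, SE 0.40), Plau (0.19, SE 0.11) and Vegfa (-0.14, SE 0.10) had the lowest p, with edgeR adjusted p of 0.619, 0.670 and 0.765. Il6 had no counts. The monocyte attractant gene Ccl2, which is outside the naming rule and was picked after its values were seen, had 2, 6 and 1 counts in the libraries labelled Lpar3-/-, against 1, 58 and 8 in WT libraries. Heat shock genes gave 0 calls among 8 by each of the 3 tools. Of these genes, 2 were at an unadjusted edgeR p under 0.05, where 9.18% of all genes tested passed that level. Hspa1b, whose reads may be split with its near-identical copy Hspa1a, had 42.8, 46.5 and 54.8 CPM in the libraries labelled Lpar3-/-, against 37.1, 35.9 and 42.5 CPM in WT libraries (log2 fold change 0.32, SE 0.10, edgeR adjusted p = 0.306), while Hsph1 had a log2 fold change of -0.17 (SE 0.075, edgeR adjusted p = 0.527) and Hspa8 one of -0.22 (SE 0.12, edgeR adjusted p = 0.657). WT replicate 2 was the highest library for 5 of the 8 heat shock genes, and their summed level was 1542 to 1690 CPM in the libraries labelled Lpar3-/- and 1529 to 2022 CPM in WT libraries, the top value being that of WT replicate 2.

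Over the 6 libraries, the genes whose profile was closest to the mean profile of the 9 were Ppp1ccb, Wdr44, Zfp810, Hmga1 and Pdlim7. Closeness was the root mean square difference of centred log2(CPM + 1), taken over 12552 genes, and ran from 0.029 for Ppp1ccb to 0.046 for Pdlim7. Hmga1, which encodes a chromatin protein that binds AT-rich DNA, had 10.4, 9.57 and 11.4 CPM in the libraries labelled Lpar3-/-, against 10.9, 13.8 and 11.9 CPM in WT libraries. Its highest library was WT replicate 2 and its lowest labelled Lpar3-/- replicate 2, as in the mean profile that chose it. None of the 5 passed the edgeR test, at adjusted p from 0.695 to 0.826.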

How the data were processed

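The authors' deposited counts are whole reads per gene, 1 column per library, and their second deposited table holds FPKM. The genome build was GRCm38, and the tools listed are featureCounts 1.5.0-p3, HISAT2 2.0.5 and DESeq2 1.20.0, all per the submitters' processing notes, while the strand setting is not given in the sources used here. The deposited FPKM equalled counts over gene length and a DESeq2-type effective library size, within a relative deviation of 4.11e-08 for values of at least 20 counts. Rows without a gene name (377 of 54909, 0.259% to 0.362% of a library's counts) did not enter library sizes or tests.

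Genotypes were compared with edgeR 4.0.16 (quasi-likelihood, R 4.3.3) on all 6 libraries, with the default expression filter, TMM normalization and Benjamini-Hochberg adjustment over 15225 genes. Fold changes are Lpar3-/- over WT, SE was taken from the fold change and F statistic, and CPM are TMM-scaled. Spread was the pooled within-group SD of log2(CPM + 1). The common dispersion gave a coefficient of variation of 10.5% between replicates. DESeq2 1.42.0, limma 3.58.1 (voom, and log2 of FPKM plus an offset of 1 or 0.1), other normalizations and filters, a replicate block and leaving out each library were alternatives. The edgeR step was tested on simulated data. Exon overlaps were read from GENCODE M21.

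The genes and lists were chosen with earlier results of these data known. Named were the 10 genes, Lpar3, from each other list the genes called or the 3 with the lowest p, the widest-spread genes of the 4 early lists, markers that check the tissue, and the 5 genes of nearest profile.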

Additional observations from a re-analysis of the deposited data

How the results depend on the processing

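All 16 alternatives called 0 of the 9 immediate early genes tested. Their signs held under each, except Egr1, which ran from -0.76 to 0.16 in log2 fold change when single libraries were left out (0.16 without WT replicate 2). Among the other named genes Vegfa also changed sign, from -0.21 to 0.0077 over the same fits, and the cause was not tested. The number of genes called over all genes, 57, was 171 with DESeq2, 520 with no filter, 9 with limma on log2(FPKM + 1), 13 on log2(FPKM + 0.1), 4 with no filter on FPKM, and 12 to 149 with a library left out. The number of other early genes called, 1, was 2 with DESeq2 and 9 with no filter, and 0 with limma-voom, with the replicate block, and with limma on log2(FPKM + 1), on log2(FPKM + 0.1) and with no filter on FPKM. It was 0 to 3 with a library left out. The cause of these changes was not tested. Fits with a library left out had fewer samples, and those without a filter tested more genes. In both kinds of fit the number called over all genes rose in some and fell in others. The median spread of the 9 genes ran from 0.182 on log2(FPKM + 1) to 0.265 on log2(CPM + 0.1). These scales differ from the main one, and the medians over all genes tested were 0.103 and 0.146 on them.

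The replicate numbers showed at most a weak pairing of the libraries. Deviations from the group means of same-numbered libraries correlated at 0.0107, 0.0307 and 0.0673 across genes. Libraries of different number correlated at -0.0751 to 0.0417, the top value being that of labelled Lpar3-/- replicate 1 with WT replicate 2. The replicate block gave 80 calls over all genes and 0 of the 9.

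Depth limits Fosb (12 counts in all in each group), Fos and Egr2. With 3 libraries a group, a spread such as that of Egr1 leaves an interval of more than 1 log2 unit.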
